A study of Mus musculus with 6 samples.

Results

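The cytosolic ribosomal proteins are the protein parts of the ribosomes that translate nuclear messages, and their transcripts were compared between regenerating and uninjured mouse muscle. Members were chosen by symbol, as names that start with Rpl or Rps and go on with a number, with P0 to P2 or with a, and each symbol was represented by its row of highest mean RPKM in the table. Of 77 symbols of this form, Rpl3, Rpl10 and Rpl22 were set aside by the rule and are given beside the related genes. This left 74 of the 26431 genes in the table, 43 of the large (60S) subunit and 31 of the small (40S) subunit. RNA came from the tibialis anterior (TA) muscle of 3 mice, collected 3 days after the muscle was given cardiotoxin (CTX; 50 μl at 10 μM), a snake venom toxin that destroys muscle fibres, and of 3 uninjured mice that received none. All were female C57BL/6 mice by their labels, 8 to 10 weeks old. Each muscle gave 1 library of single reads of 50 bases. The whole muscle was used, so each value averages over every cell type present. In such bulk samples, a change in the number of cells of a type and a change in the RNA per cell cannot be told apart.

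A ribosome is built from 4 ribosomal RNAs and a set of small basic proteins, nearly all of them needed in equal copy number, and growing cells spend much of their RNA polymerase and translation capacity on making them. The large subunit forms peptide bonds and holds the exit tunnel, and the small subunit binds the messenger RNA and reads its codons. Messages of ribosomal proteins start with a run of pyrimidines, the 5′ terminal oligopyrimidine (TOP) motif, through which the kinase mTORC1 and the RNA-binding protein LARP1 set their translation together. Ribosomal proteins made in excess are degraded, and adult muscle is known to raise its ribosome content when it grows.

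Values are RPKM, read counts divided by transcript length and by each library's mapped reads, so that levels of different genes are compared per length. The libraries held 34202861 to 36129090 mapped reads at day 3 and 38737746 to 43062684 in uninjured muscle, and each member was covered by 520 to 59708 reads per library. Mitochondrially encoded RNA took 4.77 to 6.62% of reads at day 3 and 22.1 to 24.7% in uninjured muscle. The tissue label fitted its markers. The summed level of 10 adult fast fibre genes was 2104 to 9248 RPKM at day 3 and 50251 to 54250 RPKM in uninjured muscle, with all 10 called lower. Markers of incoming and dividing cells were higher: 10 macrophage genes summed to 4271 to 5986 RPKM at day 3 and 32.4 to 47.6 RPKM in uninjured muscle, 5 myoblast genes to 550 to 800 and 13.2 to 18.3 RPKM, 6 genes of dividing cells to 267 to 330 and 12.1 to 13.7 RPKM, and 7 fibroblast genes to 2250 to 2462 and 242 to 377 RPKM. Of these lists 10 of 10, 5 of 5, 6 of 6 and 6 of 7 were called higher. Low sums were found for 8 neutrophil genes (13.8 to 40.7 RPKM at day 3, 1.39 to 5.98 RPKM in uninjured muscle, with Ly6g listed at the floor of the table in all 6 libraries) and 8 lymphocyte genes (4.25 to 6.32 and 0.42 to 0.72 RPKM). Erythrocyte genes summed to 69.6 to 153 and 146 to 463 RPKM, and 6 endothelial genes, of which none was called higher and 1 lower, to 82.7 to 87.0 and 74.4 to 83.5 RPKM. The sums of all these lists but the endothelial and erythrocyte ones differ between the groups without overlap, as the ribosomal proteins below do, and their part in those results was not tested.

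All 74 ribosomal protein transcripts were higher at day 3 and none was lower. Their summed level was 32002, 31954 and 36901 RPKM in the day 3 libraries and 7414, 7745 and 7469 RPKM in the uninjured libraries, a ratio of 4.46. No member's day 3 libraries overlapped its uninjured libraries. A call needed an adjusted p under 0.05 in limma, fitted over all 14446 genes with a mean of at least 0.5 RPKM, together with a change of at least 1 on the log2(RPKM + 0.1) scale. At this rule 60.5% of all genes tested were called higher and 7.96% lower, so most of the transcriptome moved the same way. In 78.5% of all genes tested every day 3 library also lay above every uninjured one. The median log2 fold change was 2.15 over the members and 1.35 over all genes tested. All 74 members lay above the median of all genes, and they kept within a range of 1.43 to 2.90 (SD 0.31 over members, against 1.79 over all genes). Their standard errors were 0.06 to 0.15 and their limma adjusted p-values 1.2e-07 to 1.57e-05. The plot of levels by library shows the shift of the whole set.

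**Figure D1:**
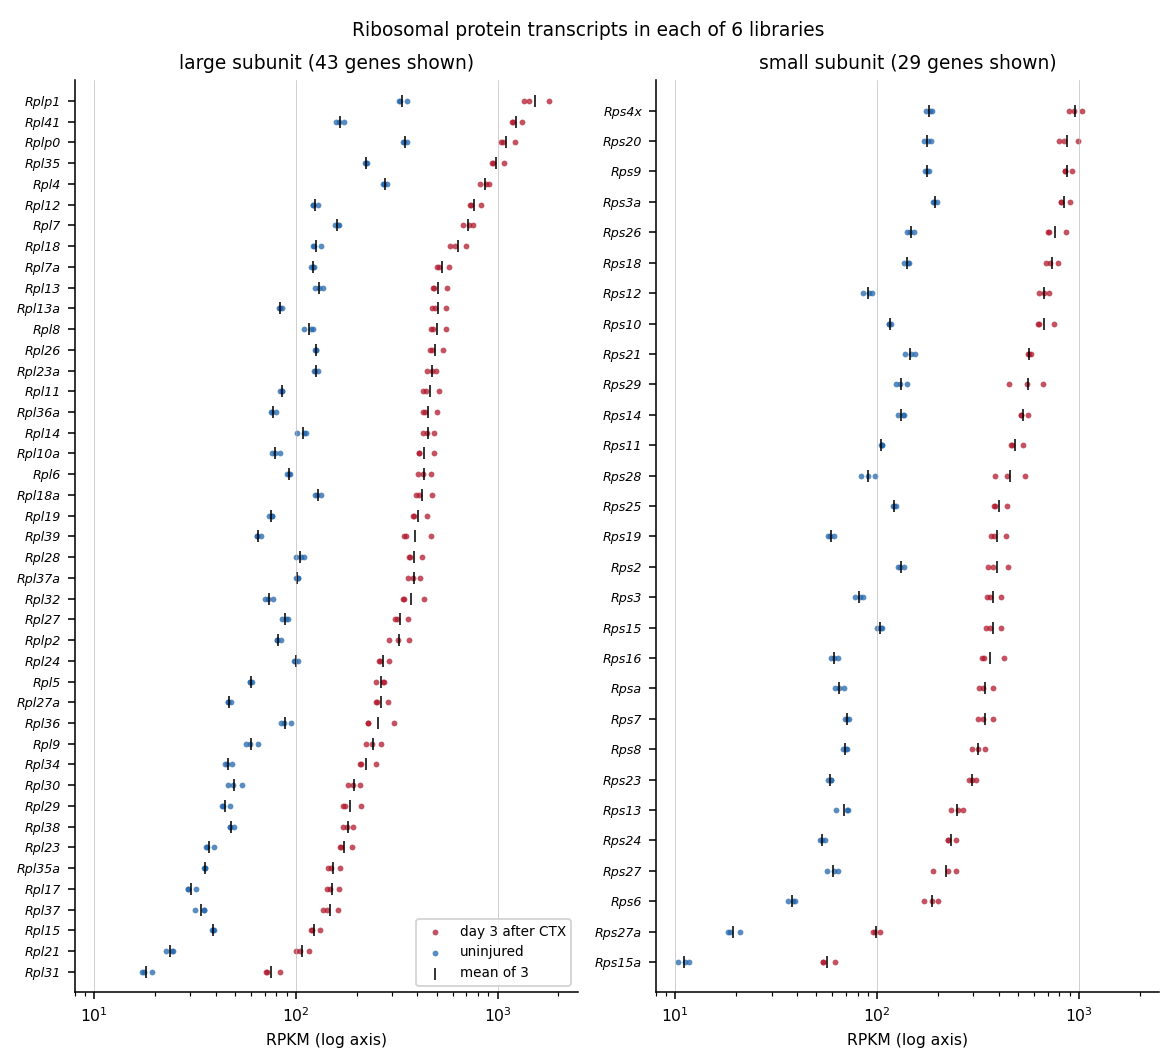
RPKM (log axis) of 72 of the 74 ribosomal protein transcripts in 3 day 3 libraries (red) and 3 uninjured libraries (blue), by subunit and in order of the day 3 mean. Black ticks are means of 3. Every red group lies to the right of its blue group, and the order of genes is much alike in both.

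How large the rise is depends on the scale. RPKM divides by all mapped reads, of which fewer were mitochondrial at day 3. Scaled to reads outside mitochondrial sequences the median member rose by 1.85, and scaled to ERCC spike-in RNAs by 1.72, with all 74 called. With median-of-ratios scaling, which sets the typical gene near no change (median of all genes 0.06), 19 of 74 members were called higher and none lower, their median was 0.81 and their range 0.09 to 1.55. With quantile normalization (median of all genes -0.07) 71 were called higher, and the median was 1.60. Over all genes the main scale gave 8740 higher and 1150 lower, median-of-ratios scaling 3802 and 3254, and quantile normalization 3460 and 3561. The rise of single members is thus given on the RPKM scale, beside a median of 1.35 for all genes.

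As a share of all transcripts, the members held 8.19, 7.98 and 9.17% of the summed RPKM at day 3 (8.45% ± 0.63, SD, n = 3), against 1.80, 1.89 and 1.84% in uninjured muscle (1.85% ± 0.05, n = 3). With mitochondrially encoded genes left out of the total, the shares were 9.17% ± 0.56 at day 3 and 2.68% ± 0.07 in uninjured muscle. Because the members are short, with a median length of 689 bases against 2580 over all genes tested, they took a smaller part of the reads, 2.54% ± 0.20 at day 3 and 0.58% ± 0.01 in uninjured muscle. Among the 100 most abundant genes outside the mitochondrial genome, 34 were members at day 3 and 2 in uninjured muscle. The proteins of the mitochondrial ribosome, encoded by separate nuclear genes, gave other counts on the same scale. Of 76 tested, 6 were higher and 1 was lower, with a median log2 fold change of 0.42. No test of the difference between these lists was run.

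Day 3 replicate 3 stood above the other day 3 mice for nearly every member. Its values exceeded the mean of replicates 1 and 2 in 72 of 74 members (8627 of the 14446 genes tested), by a median of 0.20 on the log2 scale, against 0.06 over all genes tested. The difference between replicates 2 and 1 had a median of -0.01 in the members. In the same mouse the fast fibre genes summed to 2104 RPKM, against 6648 and 9248 in replicates 1 and 2, and the macrophage genes to 5986 RPKM, against 4271 and 4751. Whether these go together was not tested. Without day 3 replicate 3 all 74 members were still called higher, with a median of 2.09. The median coefficient of variation per member was 8.42% over the day 3 mice and 3.66% over the uninjured mice.

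Of the stalk proteins, Rplp1 and Rplp0 were among the most abundant members, and Rplp2 was not. Rplp1, of the acidic stalk that brings elongation factors to the ribosome, was the most abundant member at day 3, with 1346, 1437 and 1793 RPKM, against 326, 354 and 328 RPKM in uninjured muscle (log2 fold change 2.17, standard error 0.13). Rplp0, on which the stalk is built, was the most abundant in uninjured muscle. It had 1064, 1037 and 1215 RPKM at day 3 and 339, 357 and 342 RPKM in uninjured muscle, one of the smaller rises (1.67, standard error 0.10). Rplp2, the partner of Rplp1, was less abundant per length, with 288, 320 and 362 RPKM at day 3 and 80.4, 81.0 and 84.1 RPKM in uninjured muscle (1.98, standard error 0.10). Rpl41, which encodes the shortest ribosomal protein, had 1173, 1193 and 1326 RPKM at day 3 and 174, 164 and 159 RPKM in uninjured muscle. It was the second most abundant member at day 3 and ranked 10 in uninjured muscle.

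In the small subunit, Rps4x, Rps20 and Rps9 had the highest mean levels at day 3. Rps4x, encoded on the X chromosome, had 950, 897 and 1036 RPKM at day 3 and 174, 188 and 183 RPKM in uninjured muscle. Rps20 had 799, 842 and 989 RPKM at day 3 and 179, 184 and 170 RPKM in uninjured muscle, and Rps9 had 849, 851 and 921 against 173, 177 and 181 RPKM. All 3 rose by 2.30 to 2.40 on the log2 scale. The lowest levels in that subunit were those of Rps15a (53.8, 54.0 and 62.2 RPKM at day 3, 10.3, 11.8 and 11.2 RPKM in uninjured muscle), whose row is a transcript of 5142 bases, the longest of all members. Next came Rps27a, made as a fusion of ubiquitin with a ribosomal protein, with 97.7, 104 and 96.0 RPKM at day 3 and 18.8, 18.3 and 20.9 RPKM in uninjured muscle. Rps6, the substrate of the S6 kinases, followed with 186, 172 and 201 RPKM at day 3 and 36.1, 38.2 and 39.3 RPKM in uninjured muscle. These 3 rose by 2.34, 2.35 and 2.29. In the large subunit the lowest at day 3 were Rpl31 (72.1, 71.3 and 83.3 RPKM at day 3, 17.3, 19.5 and 17.6 RPKM in uninjured muscle), Rpl21 (105, 101 and 117, against 22.7, 24.4 and 24.6 RPKM) and Rpl15 (120, 119 and 131, against 38.6, 39.1 and 38.5 RPKM).

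Across the 74 members, levels at day 3 and in uninjured muscle kept nearly the same order (Spearman rho 0.92, over genes, which are not independent replicates). The levels spanned 26.9-fold at day 3 and 31.2-fold in uninjured muscle, although the proteins are needed in nearly equal number. The fold change had little relation to the length of the transcript (rho -0.01) or to the uninjured level (rho -0.16). The level of a single row is uncertain, because ribosomal protein genes have many processed copies in the genome and the sources used here do not say how reads that match several sequences were assigned. Of the 50-base windows of a member's transcript, a median of 55.7% also occur in another gene of the GENCODE M21 annotation, with 98.7% for Rps27. Rps3, Rps15a, Rps20 and Rpl8 are among the 5 members under 10%, whose log2 fold changes had a median of 2.20, against 2.15 over all members. For Rps20 the windows were counted on a GENCODE transcript of 3706 bases, whereas its row has 502. Its low percentage therefore may not hold for the row itself. The table also lists 63 rows described as copies of members, such as predicted loci and pseudogenes. In the 52 of them that were tested, the log2 fold change differed from that of the parent by a median of -0.02, and in 49 by at most 0.25. Copies resemble their parents in sequence, so the same reads may fill both rows. This likeness is therefore no independent check on the members.

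Among the members, the small subunit rose slightly more than the large. Rpl3, Rpl10 and Rpl22 of the large subunit, set aside by the rule and given below, are not in this comparison. The median log2 fold change was 2.11 over the 43 large subunit members and 2.27 over the 31 small subunit members, a difference of -0.16, and 20 of the 31 lay above the large subunit's median. Between means the difference was smaller, -0.08. Within each library, the mean log2 level of the large subunit members minus that of the small ones was -0.15, -0.18 and -0.15 at day 3 and -0.09, -0.08 and -0.08 in uninjured muscle, so the groups do not overlap. Multiplying a library by a constant leaves this measure nearly as it is. The shift is small beside the spread among members of a subunit (SD 0.31 in the large and 0.30 in the small), and no p is given for it, because members are not replicates. In summed RPKM, the large subunit held 56.7% of the members' total at day 3 and 58.1% in uninjured muscle.

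**Figure D2:**
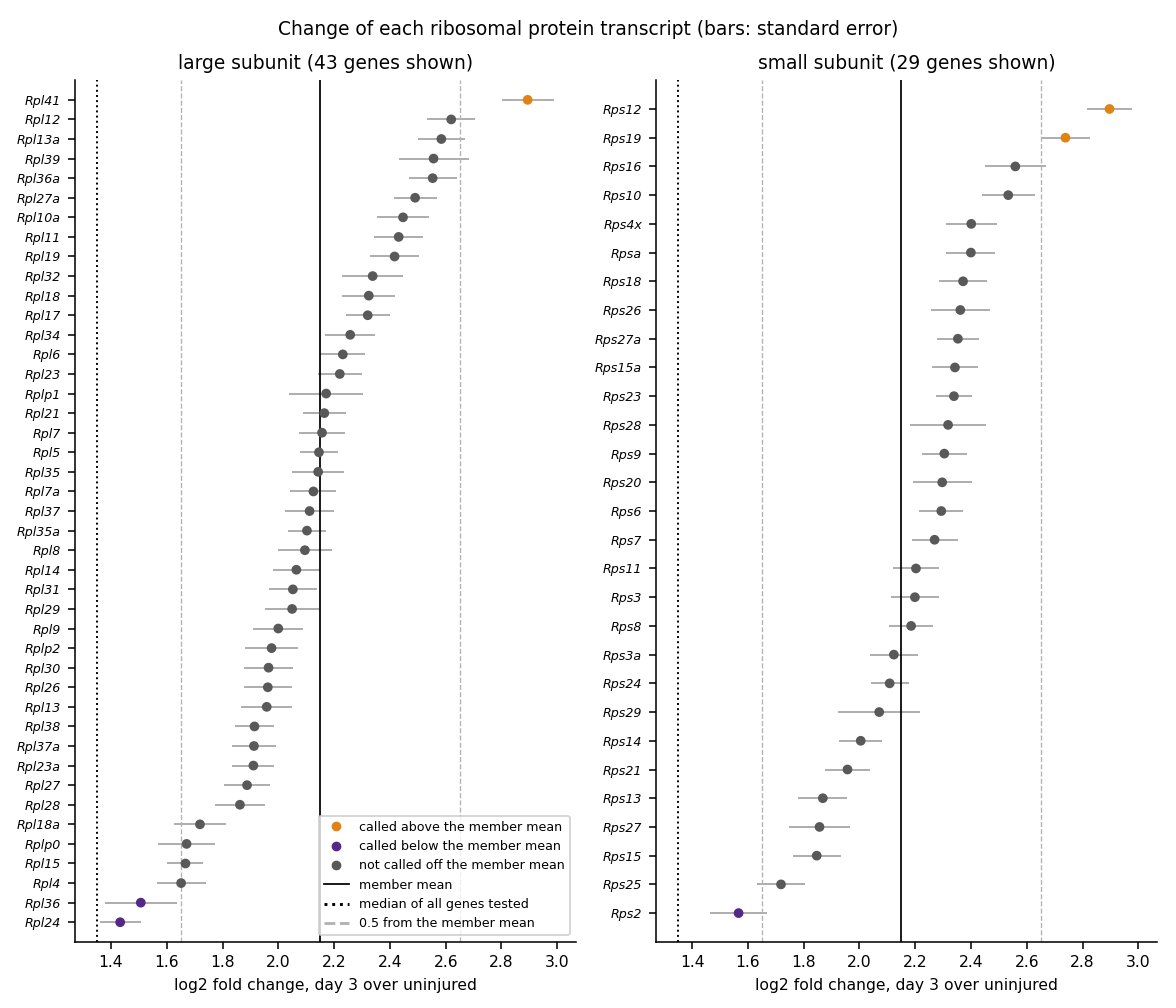
Log2 fold change (day 3 over uninjured, log2(RPKM + 0.1) scale) of 72 of the 74 members with standard errors, by subunit. The solid line is the mean over the 74 members, the dotted line the median of all genes tested (1.35), and the dashed lines lie 0.5 from the member mean. Orange points (Rpl41, Rps12, Rps19) were called above the member mean and purple points (Rpl24, Rpl36, Rps2) below it.

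To find members that moved apart from the set, the mean log2 level of the 74 members was subtracted from every gene in each library, and limma was fitted again over all genes. A member was called off the mean at an adjusted p under 0.05 and a difference of at least 0.5. By this rule 3 members were above and 3 below, where 19.8% of all genes tested were above and 57.8% below. The other 68 members did not meet this rule. With quantile normalization, which reshapes each library, the counts were 11 above and 6 below, and Rps19 fell just short at 0.50.

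Rps12, a small subunit protein, had the largest rise, next to that of Rpl41. It had 638, 674 and 709 RPKM at day 3 and 94.6, 91.0 and 85.6 RPKM in uninjured muscle, a log2 fold change of 2.90 (standard error 0.08), which is 0.75 above the member mean (standard error 0.09, limma adjusted p = 1.24e-04). By level it ranked 14 of the members at day 3 and 36 in uninjured muscle. Rpl41, with the values above, rose by 2.89 (standard error 0.09), 0.74 above the mean (adjusted p = 1.78e-04). Rps19, of the head of the small subunit and in humans the gene most often mutated in Diamond-Blackfan anaemia, had 367, 381 and 436 RPKM at day 3 and 56.9, 61.5 and 58.5 RPKM in uninjured muscle. It rose by 2.74 (standard error 0.09), 0.59 above the mean (adjusted p = 1.29e-04).

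Rpl24, whose product forms a bridge between the subunits, rose least. It had 261, 259 and 289 RPKM at day 3 and 98.6, 102 and 98.1 RPKM in uninjured muscle, a log2 fold change of 1.43 (standard error 0.07) that was close to the median of all genes and differed from the member mean by -0.72 (adjusted p = 4.5e-05). Rpl36 had 229, 227 and 306 RPKM at day 3 and 83.9, 94.1 and 87.6 RPKM in uninjured muscle. It rose by 1.51 (standard error 0.13) and differed from the mean by -0.64 (adjusted p = 3.56e-04). Rps2, which lines the entry channel of the messenger RNA, had 373, 356 and 444 RPKM at day 3 and 127, 137 and 130 RPKM in uninjured muscle. It rose by 1.57 (standard error 0.10) and differed from the mean by -0.58 (adjusted p = 2.4e-04). Of these 6, all share a large part of their windows with other genes (53.1% for Rpl41 to 83.5% for Rps12). The plot of deviations by library shows these 6 genes in each mouse. As they were picked by a fit to these same deviations, the lack of overlap between their groups adds no support. Rpl12, which was not called, was also apart (1.01 to 1.04 at day 3, 0.54 to 0.58 in uninjured muscle).

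**Figure D3:**
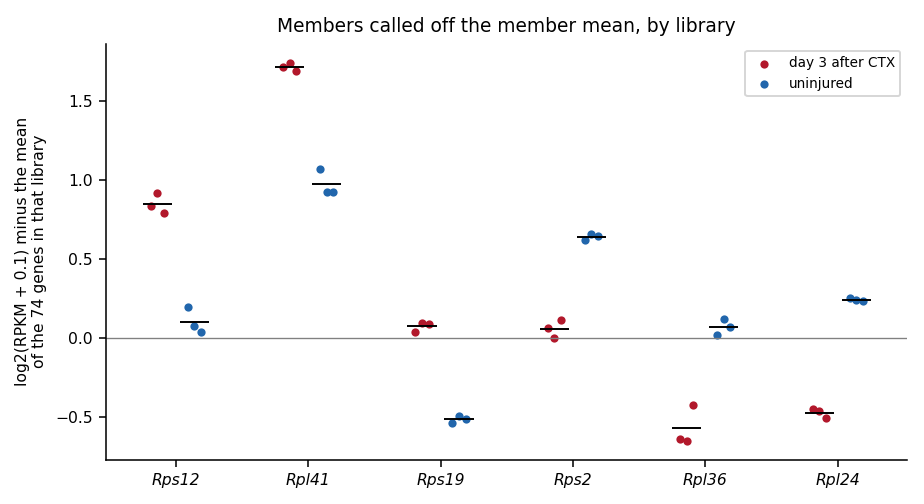
Log2(RPKM + 0.1) of the 6 members called off the member mean, minus the mean of the 74 members in the same library, in 3 day 3 libraries (red, left of each pair) and 3 uninjured libraries (blue, right). Black lines are means of 3. This difference from the member mean is higher for Rps12, Rpl41 and Rps19, and lower for Rps2, Rpl36 and Rpl24, in every day 3 library than in any uninjured library. The 6 genes were picked on this same difference. The RPKM of all 6 rose.

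Other members at the ends of the range did not reach the difference of 0.5. Rpl12, at the base of the stalk, rose by 2.62 (729 to 828 RPKM at day 3, 121 to 129 RPKM in uninjured muscle), and Rpl13a by 2.58 (471 to 552 and 82.4 to 85.1 RPKM). Rps16, whose tail reaches the transfer RNA in the decoding site, rose by 2.56 (330 to 424 and 59.1 to 63.7 RPKM). Rpl39, a short protein of the exit tunnel, rose by 2.56 (343 to 466 and 64.1 to 67.2 RPKM). At the lower end, Rpl4, which lines the exit tunnel, rose by 1.65 (815 to 910 RPKM at day 3, 270 to 283 RPKM in uninjured muscle), Rpl15 by 1.67 and Rps25, which many viral initiation sites need, by 1.72 (381 to 442 and 120 to 124 RPKM). Rpl4 lay -0.50 from the member mean, just short of the difference needed.

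Several members with known roles beyond the ribosome, given here, were not called off the mean. Rpl5 and Rpl11, which with 5S RNA bind Mdm2 when ribosome assembly fails, had 271, 250 and 273 RPKM and 440, 428 and 511 RPKM at day 3, against 59.1, 60.8 and 59.1 RPKM and 83.7, 85.7 and 85.1 RPKM in uninjured muscle. They rose by 2.15 and 2.43. Rpl38, which in mouse embryos is needed for translation of Hox messages, had 171, 179 and 193 RPKM at day 3 and 47.1, 49.1 and 47.4 RPKM in uninjured muscle (1.91, standard error 0.07). Rpsa, also known as a laminin receptor, had 336, 319 and 377 RPKM at day 3 and 61.8, 68.5 and 64.7 RPKM in uninjured muscle (2.40, standard error 0.09). Rpl5 differed from the member mean by -0.0041, Rpl11 by 0.28, Rpl38 by -0.24 and Rpsa by 0.25. For Rpl11, Rpl38 and Rpsa the limma adjusted p was under 0.05, and only the difference of 0.5 was not reached.

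The starts of the genes share sequence features that the rule did not use. RefSeq start sites (GRCm38.p6) were matched for 55 of the 74 members, and the stretch from 250 bases before to 50 bases after each start was searched. A run of at least 8 C or T letters that touches the 25 bases on either side of the start, on the strand of the gene, was found in 34 of 55 members (61.8%) and in 27.1% of 27025 genes. A few starts are shown because they carry such a run at the start site itself. Each is 15 bases before and 15 after the annotated start, with the run in capitals as far as it lies within these letters. The run of Rpl27a, of 20 letters, goes on past them.
Rps6, chr4:86857353-86857382, minus strand: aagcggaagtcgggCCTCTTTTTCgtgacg
Rps18, chr17:33955651-33955680, minus strand: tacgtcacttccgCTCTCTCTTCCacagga
Rpl35, chr2:39005117-39005146, minus strand: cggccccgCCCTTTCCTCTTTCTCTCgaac
Rpl15, chr14:18270972-18271001, minus strand: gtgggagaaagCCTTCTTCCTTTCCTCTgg
Rpl27a, chr7:109519180-109519209, plus strand: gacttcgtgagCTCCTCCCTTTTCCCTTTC
Rps18 had 723, 686 and 789 RPKM at day 3 and 137, 143 and 144 RPKM in uninjured muscle, Rpl35 933, 946 and 1074 against 222, 221 and 225 RPKM, and Rpl27a 250, 254 and 287 against 46.3, 48.0 and 45.9 RPKM.

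Members with and without such a run had the same median log2 fold change, 2.20 over 34 and 2.20 over 21. The starts of the members that rose most and least are set beside each other because they were called off the mean (Rpl36 was not matched).
Rps12, rise 2.90, chr10:23787195-23787224, minus strand: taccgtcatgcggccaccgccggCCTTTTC
Rpl41, rise 2.89, chr10:128549154-128549183, minus strand: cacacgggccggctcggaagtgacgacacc
Rps19, rise 2.74, chr7:24884898-24884927, plus strand: gagggagcggggtgtggagggctctcccac
Rps2, rise 1.57, chr17:24720048-24720077, plus strand: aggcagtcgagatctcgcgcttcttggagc
Rpl24, rise 1.43, chr16:55966260-55966289, plus strand: agaaagctgttgctaggaaacagactgggc
Of these 5, only Rps12 had a run of at least 8 letters near the annotated start, the others having runs of 3 to 7. The run of Rps12 has 11 letters and goes on past those shown. An annotated start may lie some bases from the start used in muscle, and start sites were not measured here, so the absence of a run in these letters says nothing of the message itself.

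Of 4 short motifs searched in the same stretch, whether or not they overlap one another, CCGGAAG (on both strands), the letters of an ETS family site, was found in 24 of 55 members (43.6%) and in 9.93% of all genes. CTCGCGAG (both strands) was found in 7 members (12.7%) and in 1.04% of all genes. AAGATGGC (both strands), the letters of a YY1 site, was found in 4 members (7.27%, all genes 3.19%) and TATAAA on the strand of the gene in 5 (9.09%, all genes 9.77%). The median log2 fold change was 2.24 over the 24 members with CCGGAAG and 2.15 over the 31 without. These are matches of letters, and binding was not measured.

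Of the 9 members with several transcripts in the table, 8 had transcripts whose log2 fold changes differed by at most 0.10. The exception was Rps24, whose message is spliced in different ways around its stop codon. The 3 listed transcripts are 875, 857 and 837 bases long. Short exons set them apart, and these are shown because each holds a stop codon, in capitals, at which the reading frame of a transcript ends (GRCm38, plus strand).
Rps24, 18-base exon, chr14:24494052-24494069: aaaTGAaatacctagcag
Rps24, 20-base exon, chr14:24495430-24495449: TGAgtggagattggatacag
The 875-base transcript holds both exons and its reading frame ends in the 18-base exon. The 857-base transcript holds the 20-base exon alone, and the 837-base transcript neither.

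The 875-base transcript of Rps24 had 207, 209 and 222 RPKM at day 3 and 69.3, 66.2 and 66.2 RPKM in uninjured muscle, a log2 fold change of 1.66 (standard error 0.07). The 857-base transcript had 225, 225 and 245 RPKM at day 3 and 55.1, 52.4 and 53.2 RPKM in uninjured muscle (2.11, standard error 0.07), and the 837-base transcript 212, 212 and 238 RPKM at day 3 and 51.9, 54.4 and 51.9 RPKM in uninjured muscle (2.06, standard error 0.08). The 875-base transcript thus held 32.1, 32.4 and 31.5% of the summed RPKM of Rps24 at day 3 and 39.3, 38.3 and 38.6% in uninjured muscle, a difference of -6.76 percentage points. The groups do not overlap (exact permutation test, two-sided p = 0.1, the smallest that 3 against 3 allows). Apart from these short exons and their ends the transcripts share their sequence, and how shared reads were divided among them is not given, so the shares are not proportions of molecules. The plot of transcript shares shows the difference in each mouse.

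**Figure D4:**
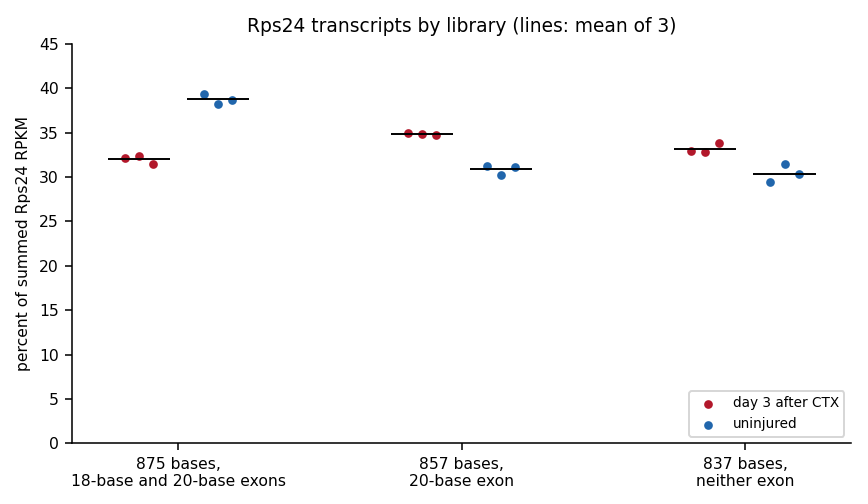
Percent of the summed RPKM of Rps24 held by each of its 3 listed transcripts, in 3 day 3 libraries (red, left of each pair) and 3 uninjured libraries (blue, right). Lines are means of 3. The share of the transcript with the 18-base exon is lower at day 3 in every mouse, and the shares of the other 2 are higher. The RPKM of all 3 transcripts rose.

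Of the ribosomal protein genes outside the rule, Rpl3 lay far from the members. It had 366, 345 and 412 RPKM at day 3 and 15.2, 13.5 and 15.5 RPKM in uninjured muscle, a log2 fold change of 4.66 (standard error 0.09), whereas its paralog of striated muscle, Rpl3l, had 15.1, 25.8 and 2.56 RPKM at day 3 and 182, 198 and 187 RPKM in uninjured muscle (-4.22, standard error 0.76, limma adjusted p = 0.00109). Rpl10 rose by 2.15, Fau, which encodes Rps30, by 2.42, and Rpl22 by 1.50. Of 8 paralogs of ribosomal proteins, 6 were tested, of which 5 were higher and Rpl3l was lower. Rpl22l1 rose by 1.99 and Rpl7l1 by 1.83, close to the members. Rpl36al rose by 1.34 (215 to 263 RPKM at day 3, 88.4 to 102 RPKM in uninjured muscle) and Rps27l by 1.13 (151 to 160 and 66.7 to 72.7 RPKM), both below the member mean by the same fit (differences of -0.81 and -1.02) and both under 0 with median-of-ratios scaling (-0.0043 and -0.21). Their parents Rpl36a and Rps27 rose by 2.55 and 1.86. Rps4l, named Rps4y2 in the table, rose by 3.22 from a low level (15 to 17 RPKM at day 3, 1.28 to 1.98 RPKM in uninjured muscle). Rpl10l and Rpl39l were too low to be tested.

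Genes that make ribosomes are set beside the 60.5% of all genes tested that were called higher, and beside the median of 1.35 over all genes. The medians of all 7 lists lay under that of the members. Of 15 genes of RNA polymerase I, which transcribes ribosomal RNA, 9 were called higher, 0 lower and 6 neither, with a median log2 fold change of 1.32, both close to the values over all genes. With median-of-ratios scaling 2 were higher (median 0.03), and with quantile normalization 1 (median -0.12). The subunits Polr1c (21.2 to 25.3 RPKM at day 3, 4.74 to 5.44 RPKM in uninjured muscle) and Polr1e (4.07 to 4.79 and 0.74 to 0.92 RPKM) rose by 2.15 and 2.30 and the initiation factor subunit Taf1d by 2.53, while Polr1d, the most abundant, had a change of 0.79. Of 22 genes that process and modify ribosomal RNA, 20 were higher and none lower (median 1.82), against 7 higher with median-of-ratios scaling (median 0.50) and 8 with quantile normalization (median 0.56). The nucleolar chaperone Npm1 (171, 162 and 172 RPKM at day 3, 16.9, 15.1 and 16.9 RPKM in uninjured muscle) rose by 3.36. Nop58 and Fbl, core proteins of the box C/D particles that methylate ribosomal RNA, rose by 3.21 and 3.18. They had 45.4 to 55.7 and 45.5 to 51.9 RPKM at day 3 and 5.14 to 5.50 and 4.61 to 5.63 RPKM in uninjured muscle. Npm1, Nop58 and Fbl lay above the member mean, by 1.21, 1.06 and 1.03 (limma adjusted p at most 4.38e-05). Of the 22 genes, however, only 4 were called above the member mean and 10 below it, with a median difference of -0.33. Over all genes tested 19.8% were above and 57.8% below.

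Of 20 genes of 60S assembly, 18 were higher and none lower (median 1.73), against 0 higher with median-of-ratios scaling (median 0.40) and 1 with quantile normalization (median 0.47). Eif6, which keeps new 60S subunits from joining 40S subunits too early, was the most abundant at day 3, though not in uninjured muscle (40.7, 41.1 and 48.8 RPKM at day 3, 10.5, 10.2 and 10.4 RPKM in uninjured muscle) and rose by 2.05, next to Nip7 (2.12) and Mdn1 (2.01), an ATPase that strips assembly factors from the particle. Of 15 genes of 40S assembly, 11 were higher and none lower (median 1.07), which turned to 0 higher and 2 lower with both median-of-ratios scaling (median -0.26) and quantile normalization (median -0.16). It was led by the kinase Riok1 (2.23), the methyltransferase Dimt1 (1.53, and -0.02 with quantile normalization) and Wbscr22 (1.37). Riok3, the most abundant in uninjured muscle and second to Pno1 at day 3, had 35.6, 35.8 and 31.5 RPKM at day 3 and 37.4, 35.9 and 38.2 RPKM in uninjured muscle, and was not called (-0.12, adjusted p = 0.156). The 40S assembly list thus had a lower median than the 60S assembly list, whereas the small subunit members had a slightly higher one than the large. Neither difference was tested.

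**Figure D5:**
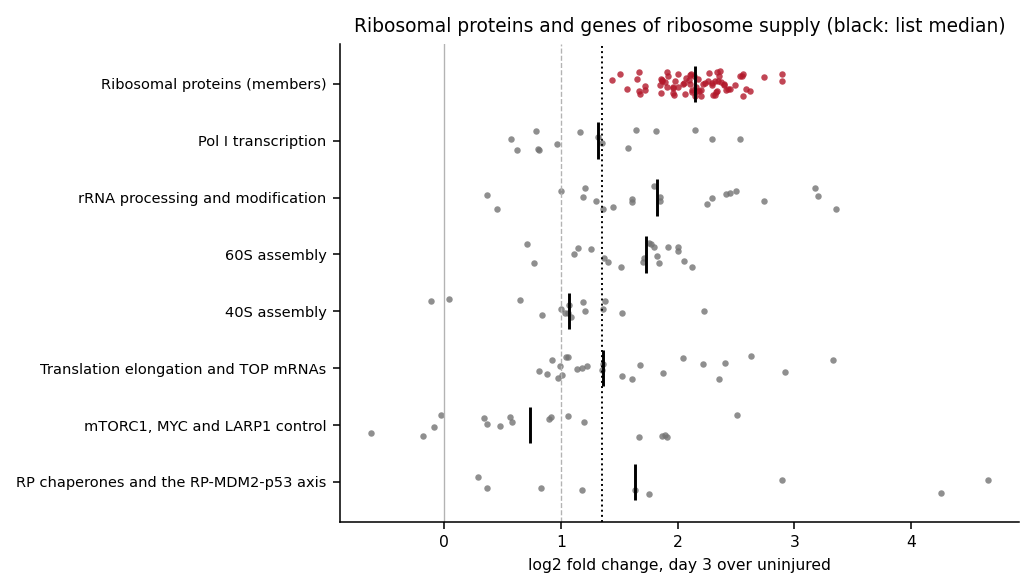
Log2 fold change (day 3 over uninjured) of the 74 ribosomal protein members (red) and of the tested genes of 7 lists on ribosome supply and control (grey), with list medians as black bars. The dotted line is the median of all genes tested (1.35) and the dashed line the smallest change that was called. Members cluster between 1.43 and 2.90, and the lists spread more widely. Cdkn2a, at the far right of the last list, has no reads in uninjured muscle, so its position depends on the 0.1 added to each value.

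A list of translation factors and of other genes, many of which also carry TOP motifs in their messages, had a median at that of all genes. Of 24 tested, 19 were higher and none lower (median 1.36), against 5 higher with median-of-ratios scaling (median 0.02) and 9 with quantile normalization (median 0.78). The poly(A)-binding protein Pabpc1 had 309, 284 and 348 RPKM at day 3 and 32.5, 28.2 and 32.7 RPKM in uninjured muscle and rose by 3.33. Hnrnpa1 and the histone chaperone Nap1l1 rose by 2.92 and 2.63. Tpt1, the most abundant of the list, had 1981, 2021 and 1853 RPKM at day 3 and 1092, 1034 and 1057 RPKM in uninjured muscle, a change of 0.88 that did not pass the fold needed.

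Of 18 tested genes of mTORC1, MYC and LARP1 control, 7 were called higher, 0 lower and 11 neither (median 0.74), against 1 higher and 4 lower by median-of-ratios scaling (median -0.56) and 0 higher and 4 lower by quantile normalization (median -0.35). Myc, which in many cells drives ribosomal genes, had 5.29, 5.0 and 7.78 RPKM at day 3 and 1.03, 0.91 and 0.94 RPKM in uninjured muscle (2.51, standard error 0.17), and Mxd1, its antagonist, rose by 1.91. Eif4ebp1, a translation repressor that mTORC1 inactivates, was the most abundant at day 3, though not in uninjured muscle, with 61.1, 61.9 and 71.7 RPKM at day 3 and 15, 20.9 and 16.7 RPKM in uninjured muscle (1.89, standard error 0.13). Of 9 genes of ribosomal protein chaperones and the Mdm2 and p53 axis, 6 were higher and none lower (median 1.63), a share near that of all genes. With median-of-ratios scaling 3 were higher and 1 lower (median 0.31), and with quantile normalization 3 higher and 0 lower (median 0.35). Trp53, encoding p53, had 22.3, 21.4 and 28.9 RPKM at day 3 and 3.26, 2.77 and 3.45 RPKM in uninjured muscle (2.89, standard error 0.14). Its target Cdkn1a had 108, 81.9 and 95.3 RPKM at day 3 and 2.93, 11.9 and 3.23 RPKM in uninjured muscle (4.26, standard error 0.50). Cdkn2a, whose ARF product restrains Mdm2, had 3.34, 1.94 and 2.98 RPKM at day 3 and was at the floor of the table in all uninjured libraries.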

How the data were processed

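The authors aligned single reads to RefSeq mouse transcripts with BWA and deposited RPKM values per transcript and library. Submitters' notes also name CASAVA 1.4 and SAMtools 0.1.19, and the rule for reads matching several transcripts is not given in the sources used here. RPKM times length and library total gave whole reads (within 0.01 read) for 100% of values above the floor of 0.01, which was taken as 0 reads. Samples were grouped by their labels, and nothing was pooled.

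Genes were compared on log2(RPKM + 0.1) with limma 3.58.1 in R 4.3.3 (lmFit, and eBayes using a trend), over genes with a mean of at least 0.5 RPKM, with Benjamini-Hochberg adjustment over all genes tested, and was tested on simulated data. The value added understates changes of low genes. Summaries were made with SciPy 1.17.1, NumPy 2.4.6 and pandas 2.3.3 under Python 3.11.15, and plots with matplotlib 3.10.9. Named members had, in each subunit, the 3 highest and lowest fold changes or levels, or were called off the member mean, or were on a fixed list of names, such as Rplp2 and Rpl39. In each list the most abundant gene and up to 3 largest rises and falls were named. Rps3, Rps18, Rps27, Rpl8, Rpl27a, Rpl35 and Rpl36a were added for their sequences. A few genes are counted in totals but not reported here. Members, lists and markers were chosen with earlier results of these data known. Alternatives varied the value added, filter, scaling, test, transcript, replicate block and libraries. Start sites and motifs come from RefSeq (GRCm38.p6), exons and shared windows from GENCODE M21 (GRCm38).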

Additional observations from a re-analysis of the deposited data

How the results depend on the processing

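The 74 calls were the same with 0.01 or 1 added, without a filter or at a mean of at least 2 RPKM, without the trend, with voom on recovered reads (8869 genes higher and 1173 lower in all), with summed rows or the longest transcript, and with any library left out (74 in each). Median-of-ratios scaling called 19 members, with a median of 0.81. The median of members was 1.85 with reads outside mitochondrial sequences, 1.72 with ERCC scaling and 1.60 with quantile normalization, and 2.09 to 2.19 with a library left out. It was 2.20 over the 5 members with few shared windows and 2.18 over the 36 with 1 row and no copy row, both chosen after seeing the data. Of those 5, Rps20 was counted on a transcript much longer than its row. The 36 lack only copies that are listed in the table, and can still share windows with other genes (81.7% for Rpl24). Their median therefore cannot show the effect of shared reads. The large minus small difference was -0.17 with 1 added, -0.10 with quantile normalization, -0.14 with summed rows or the longest transcript, and -0.16 to -0.12 with a library left out. Off the mean, the counts above and below were 11 and 6 with quantile normalization (5 of the 6 main calls kept, Rps19 lost at 0.50), 20 and 19 with no fold minimum, and 3 and 7 around the median of the members. They were 3 above and 3 to 4 below with a library left out. Over the 7 lists of ribosome supply and control, 90 genes were higher and 0 lower. These counts were 18 and 7 with median-of-ratios scaling, 57 and 1 with ERCC scaling, 22 and 6 with quantile normalization, and 86 to 92 and 0 with a library left out. The ratio of the members' share was 4.58, 3.42 without mitochondrial genes, and 4.38 to 4.70 with a library left out. With median-of-ratios scaling Rpl36al (-0.0043) and Rps27l (-0.21) were no longer higher, and Dimt1 was at -0.023 with quantile normalization. The causes were not tested. The replicate numbers did not pair the mice (correlations of -0.06, 0.09 and 0.02 between same-numbered libraries), and with a replicate block 74 members were higher, 3 above and 3 below the mean, the median was 2.15 and no member's call changed. With 3 mice per group, depth was not the limit for members, but reads shared with copies limit the level of each row.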

Other observations

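The rows of ribosomal RNA varied within groups. The 18S row Rn18s had 2490, 1230 and 1522 RPKM at day 3 and 863, 542 and 1928 RPKM in uninjured muscle, and the groups overlap. These rows count reads in the libraries, and the ribosomal RNA content of the muscle was not measured.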
